A study of Rattus norvegicus with 15 samples.

Results

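The Slc25 genes encode the mitochondrial carrier family, proteins that move nucleotides, phosphate, organic acids, amino acids, iron and cofactors across the inner mitochondrial membrane. Members were taken by name from the table of rat genes: every symbol made of Slc25a and a number, with a mean count of at least 10 over the 15 libraries. Of 37991 genes listed, 49 had such a symbol and 40 reached the minimum. All 40 also passed the filter for testing, which kept 17201 genes in all.

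The study sequenced total RNA of multifidus, a deep back muscle, from male wild-type Sprague Dawley rats, recorded as aged 12 weeks and weighing 340 to 370 g. The methods give this age and weight where rats were divided into groups, so they need not be those at sampling. Control rats, with 2 libraries, had no operation or injection that the labels give. The other 4 groups had spinal surgery, a left-sided removal of part of the vertebral arch with ligation of the L5 spinal nerve, and the Surgery group (2 libraries) had nothing else that the labels give. The pMT group (4 libraries) was given mitochondria isolated from human plasma, pMT, at 25 µg in 100 µL per site, and the VitD group (3 libraries) was given cholecalciferol at 150 µg, or 6000 IU, per site. Rats of the pMT/VitD group (4 libraries) received both agents at each site. With 2 sites, a rat received 50 µg of pMT, 300 µg of cholecalciferol, or both. The labels give no time of sampling and do not say that each library came from a separate rat, so the p-values measure the spread between these libraries only. For Control, Surgery and pMT rats the study's methods place treatment 2 weeks after surgery and sampling 2 weeks after that. The VitD and pMT/VitD groups are not described there.

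Carriers of this family share a fold built from repeats that each span the membrane with a pair of helices, and most are made in the cytosol and inserted by a dedicated import route. In muscle fibres the ADP/ATP carriers, which export newly made ATP in exchange for ADP, and the phosphate carrier, which supplies phosphate for ATP synthesis, are among the most abundant proteins of the inner membrane. Other members feed the malate-aspartate shuttle, bring in acylcarnitines for fat oxidation, or bring in iron and cofactors for the enzymes of the matrix.

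Library totals ran from 52342134 to 73557878 counts (median 64352162). Libraries pMT 4 and pMT/VitD 4 stood apart from their groups, and VitD 1 did so by measures given below. Transcripts of the 13 proteins encoded in mitochondrial DNA took 14.5% and 15.6% of counts in Control, 10.7% and 11.2% in Surgery, 12.9%, 11.7%, 11.1% and 22.6% in pMT, 17.7%, 13.5%, 16.5% and 11.5% in pMT/VitD, and 13.03%, 11.9% and 10.9% in VitD. Library pMT 4 had the highest share of all, and pMT/VitD 4 had the lowest of its group. The TMM factor of pMT/VitD 4, which scales its library size, was 0.982, against 0.849 to 0.867 in pMT/VitD 1 to 3, and that of pMT 4 was 0.857, against 1.04 to 1.09. The rank correlation of expression with gene length, across genes within a library, was -0.32 in pMT 4 against 0.02 to 0.45 in pMT 1 to 3. In pMT/VitD 4 it was 0.15 against -0.39 to -0.17. Libraries pMT 4 and pMT/VitD 4 kept their labels, and results are given with them and without them. They were singled out because they lay apart from their groups, so leaving them out narrows the spread by choice. Adjusted p-values without them are therefore likely too small, and calls made only there are description. The part of these libraries in each result beyond that was not tested. VitD 1 also lay apart from its group. Over genes, the SD of its log2 ratio to VitD 2 and VitD 3 was 0.614 and 0.718, against 0.491 between those. Its TMM factor was 1.20, against 1.11 and 1.09. It was left out only on its own, not together with the libraries numbered 4.

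The muscle label was checked against 12 fibre genes. All 12 had counts in every library, and Acta1 was the most abundant at a mean of 51656, a level per unit of transcript length. Their summed level was 145615 and 132324 TPM in Control, 143947 and 140048 in Surgery, 133742, 140028, 145354 and 108982 in pMT, 126705, 140035, 141013 and 151605 in pMT/VitD, and 109522, 137142 and 148013 in VitD. The sum was lowest in pMT 4 and VitD 1. Of the 12, Des passed the test in 2 comparisons, with a log2 fold change of 0.59 (edgeR adjusted p = 0.0361) for pMT/VitD against Surgery and -0.63 (edgeR adjusted p = 0.0278) for VitD against Control. Over all genes 2.40% were called higher in the former and 3.20% lower in the latter.

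The summed level of the 40 carriers was 4209.9 and 4187 TPM in Control, 4237 and 4202 in Surgery, 4635, 4716, 4667 and 3805 in pMT, 4287, 4995, 3943 and 4494 in pMT/VitD, and 3662, 3995 and 4249 in VitD. The Control and Surgery libraries lay close together, pMT 1 to 3 lay above all 4 of them, and pMT 4 lay below them. VitD 1 had the lowest sum and pMT/VitD 2 the highest. Slc25a4 alone took 65.8% to 72.7% of the family's TPM. Without it the sum was 1348 and 1326 TPM in Control, 1389 and 1372 in Surgery, 1435, 1489.5, 1499.8 and 1109 in pMT, 1194, 1363, 1211 and 1479.9 in pMT/VitD, and 1251, 1325 and 1385 in VitD, lowest in pMT 4 and pMT/VitD 1 among all libraries. The ADP/ATP carriers together made up 67.6% to 73.3% of the family's TPM and the phosphate carrier 16.7% to 18.9%. Carriers of shuttles and di- and tricarboxylates made up 4.58% to 7.07%, those of amino acids, glutathione and carnitine 2.32% to 3.78%, and those of nucleotides and cofactors 1.11% to 1.85%. The iron carriers held 0.651% to 0.893%, the ATP-Mg carriers 0.431% to 0.943%, the relatives of uncoupling proteins 0.143% to 0.221% and the remaining carriers 0.494% to 0.903%.

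By mean TPM over the 15 libraries the order began with Slc25a4 at 2940.4, Slc25a3 at 757 and Slc25a11 at 188. The range of each of these 3 over libraries did not overlap that of the next in order. Slc25a12 at 61.6 and Slc25a20 at 61.2 had overlapping ranges, as did Slc25a39 at 41.7, Slc25a5 at 33.3 and Slc25a28 at 31.0. Slc25a20 did not overlap Slc25a39, nor Slc25a28 the next member, Slc25a46 at 16.6. From Slc25a46 down to Slc25a18 at 0.239, every member's range overlapped that of its neighbour.

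**Figure D1:**
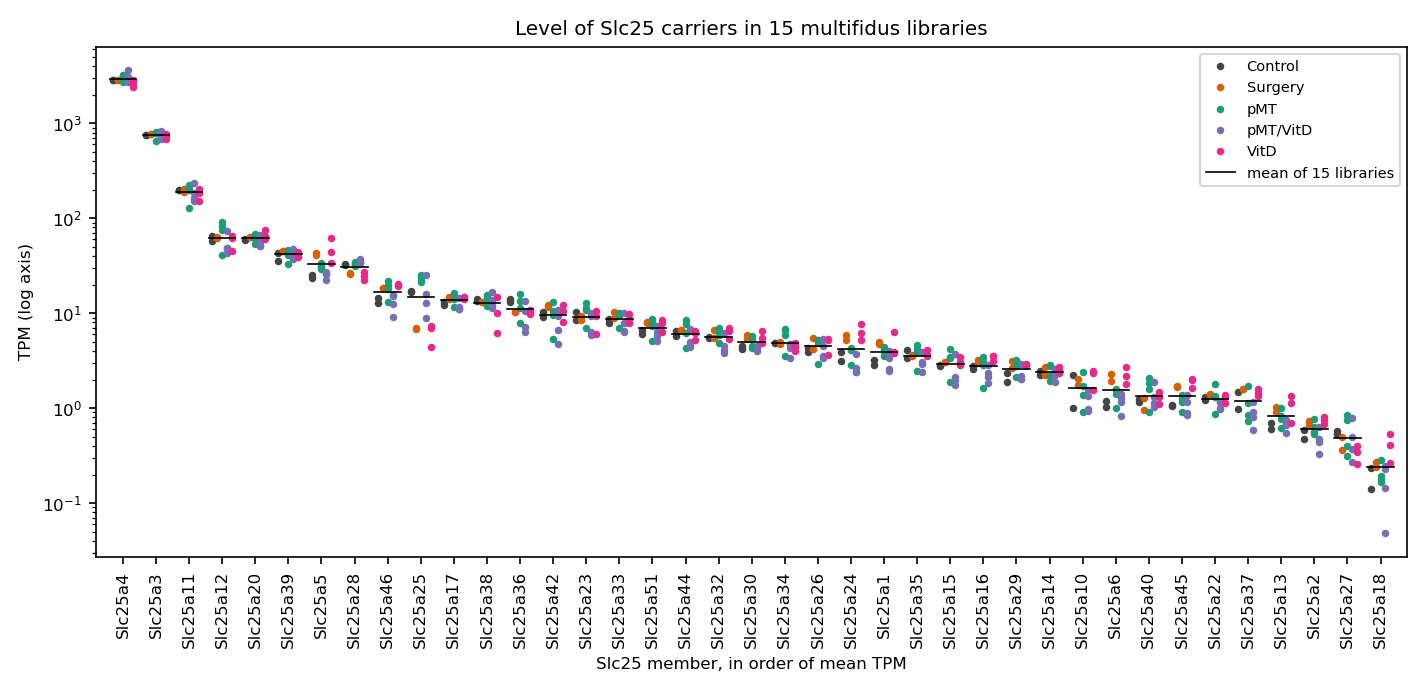
Level of Slc25 carriers in TPM on a log axis, with 1 point per library coloured by group and a line at the mean of the 15 libraries. Means run from 2940.4 TPM for Slc25a4 to 0.239 for Slc25a18.

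Differences between groups were tested on counts with edgeR's quasi-likelihood F-test, fitted to all 15 libraries, and p-values were adjusted over all 17201 genes by the Benjamini-Hochberg method. A gene with an adjusted p under 0.05 was called, which refers to this test with TMM scaling and all libraries wherever no other setting is named, and values per library are CPM, the usual rescaling of counts to a common library total, after TMM scaling. For any difference among the 5 groups 3 of 40 members were called, beside 11.8% of all genes, namely Slc25a25, Slc25a28 and Slc25a24. At an unadjusted p under 0.05 there were 13, beside 26.2% of genes. The members and genes called, 3 and 2035 with all libraries, were 9 and 2698 without pMT 4, 5 and 1790 without pMT/VitD 3, 6 and 2754 without pMT/VitD 4, and 6 and 2305 without VitD 3. Without both libraries numbered 4 the members called were 10 of 40, beside 29.8% of 17182 genes. TMM scaling held the median difference of all genes between -0.02 and 0.02 in the 8 comparisons of 2 groups. Scaling by library size only moved it to between -0.32 and 0.27, so the family is counted on either side of the median of all genes under both scalings, while the sign of a single difference is that with TMM.

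Surgery minus Control sets operated rats without an injection beside rats without an operation. By edgeR's quasi-likelihood test 0 of 40 members were called, beside 1.55% of all genes (1.25% higher and 0.296% lower). DESeq2 called 1 member and 1001 genes. With only these 2 groups fitted, 4 libraries in all, edgeR called 16 members and 5289 genes. The spread in that fit came from these 2 pairs alone, and the Surgery pair was the closest of all replicate pairs. At an unadjusted p under 0.05 there were 5 members, all lower after surgery, beside 17.0% of all genes in either direction. The members' median log2 difference was -0.15, beside -0.01 over all genes, with 15 members above the latter and 25 below, and with library size only the medians were 0.11 and 0.25, and 15 of 40 members lay above the latter. Leaving out pMT/VitD 3 gave 2 members and 300 genes called, against 266 genes with all libraries, leaving out pMT/VitD 4 gave 1 and 398, and leaving out VitD 1 gave 1 and 1022. With both libraries numbered 4 left out the count was 2, both lower, beside 4.17% of genes, namely Slc25a25 and Slc25a28.

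pMT minus Surgery sets operated rats injected with mitochondria in buffer beside operated rats without an injection. No library came from rats given buffer or another carrier fluid alone, so agent, fluid and injection cannot be told apart in the 3 comparisons with Surgery. Here 1 member, Slc25a25, was called and was higher, beside 1.94% of all genes called, 0.395% higher and 1.55% lower, and 7 members had an unadjusted p under 0.05, beside 14.3% of genes. Over the 40 members the median log2 difference was 0.12, beside 0.02 over all genes, with 26 members above the latter and 14 below, and with library size only the medians were -0.03 and -0.12, and 26 of 40 members lay above the latter. The study's own rule for differentially expressed genes, a fold change of at least 2 with p under 0.05 in edgeR's exactTest, was met with the unadjusted p by the same member alone, beside 4.04% of 16609 genes. Benjamini-Hochberg adjustment is also named in the methods, so the rule is given both ways: the unadjusted p gave 671 genes, and the adjusted p gave 451 genes and the same count of 1 member. Both totals come from refitting the deposited counts, and neither equals the number of genes that the study reports. The quasi-likelihood test called 0 members without Surgery 1 or Surgery 2, where 27 and 29 genes were called against 334, and 0 with a replicate block, a term shared by libraries of the same number, where 78 were. With both libraries numbered 4 left out it called 1, again Slc25a25, beside 3.15% of genes.

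VitD minus Surgery sets rats injected with cholecalciferol beside the same Surgery libraries. edgeR's quasi-likelihood test called 0 members, beside 0% of all genes, 0 members had an unadjusted p under 0.05, beside 0.808% of genes, and DESeq2 called 0 members. The members' median log2 difference was -0.02, beside 0.00 over all genes, with 19 members above the latter and 21 below, and with library size only the medians were 0.01 and 0.02, and 19 of 40 members lay above the latter. Leaving out any 1 library, or both libraries numbered 4, also gave 0 called members in edgeR.

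pMT/VitD minus Surgery sets rats injected with both agents beside them. Here 4 of 40 members were called, beside 7.44% of all genes. Slc25a25 and Slc25a28 were among the 3 called higher, beside 2.40% of genes called higher, and Slc25a24 was lower, beside 5.03% called lower. At an unadjusted p under 0.05 there were 10 members, 9 of them higher, beside 24.8% of genes in either direction. Over the 40 members the median log2 difference was 0.11, beside 0.00 over all genes, with 28 members above the latter and 12 below, and with library size only the medians were -0.21 and -0.32, and 28 of 40 members lay above the latter. The count was 0 without Surgery 1 or Surgery 2, where 129 and 122 genes were called against 1279, and 2 without pMT 2, pMT/VitD 1, pMT/VitD 2 or VitD 2, where 885, 684, 598 and 882 were. Without both libraries numbered 4 it was 7, beside 20.1% of genes, with Slc25a3, Slc25a4 and Slc25a39 added to the same 4. DESeq2 with all libraries called 8, with Slc25a11 added to these 7, and called 2226 genes against 1279 in edgeR.

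pMT/VitD minus pMT sets injections with and without cholecalciferol side by side. By edgeR's quasi-likelihood test 0 members were called, beside 0% of all genes, 4 had an unadjusted p under 0.05, beside 10.1% of genes, and DESeq2 called 0 members. For the family the median log2 difference was 0.01, beside -0.02 over all genes, with 26 members above the latter and 14 below, and with library size only the medians were -0.17 and -0.21, and 26 of 40 members lay above the latter. Leaving out both libraries numbered 4 gave a count of 5, beside 18.3% of genes. Of these Slc25a28, Slc25a4, Slc25a3 and Slc25a39 were higher, and Slc25a15, named after its values were seen, was lower. No other alternative of the 25 called any of these 5 here. The libraries left out were chosen for lying apart from the same groups compared here, so this count is description only.

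The remaining comparisons set treated, operated rats beside Control and do not separate treatment from surgery. For pMT minus Control edgeR's quasi-likelihood test called 0 members, beside 0% of genes, 0 had an unadjusted p under 0.05, beside 3.07%, and DESeq2 called 0 members. The 40 members' median log2 difference was -0.02, beside 0.00 over all genes, with 15 members above the latter and 25 below, and with library size only the medians were 0.09 and 0.13, and 15 of 40 members lay above the latter. For pMT/VitD minus Control the test called 0 members, beside 0% of genes, 0 had an unadjusted p under 0.05, beside 2.88%, and DESeq2 called 0 members. For the family the median log2 difference was 0.04, beside -0.01 over all genes, with 22 members above the latter and 18 below, and with library size only the medians were -0.03 and -0.07, and 23 of 40 members lay above the latter. Both counts stayed at 0 without both libraries numbered 4.

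VitD minus Control called 3 members, beside 8.67% of all genes, and all 3 were lower (Slc25a25, Slc25a28 and Slc25a11), beside 3.20% of genes called lower and 5.48% called higher. At an unadjusted p under 0.05 there were 15 members, 12 of them lower, beside 25.8% of genes in either direction. The members' median log2 difference was -0.18, beside -0.01 over all genes, with 14 members above the latter and 26 below, and with library size only the medians were 0.10 and 0.27, and 14 of 40 members lay above the latter. The count was 0 without Control 1 or Control 2, where 13 and 29 genes were called against 1492, and 1 without VitD 1 or VitD 2, where 612 and 774 were. It was 6 without pMT 4, with 1838 genes, and 7 without VitD 3, with 2396. Without both libraries numbered 4 it was 7, beside 15.1% of genes, with Slc25a5 and Slc25a24 higher and the same 3, Slc25a34 and Slc25a36 lower. The latter pair was named after their values were seen. DESeq2 with all libraries called 8, these 7 and Slc25a45, and called 2471 genes against 1492 in edgeR. Comparisons that share the Surgery or the Control libraries are not independent of each other.

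Slc25a4 is the ADP/ATP carrier of muscle and Slc25a5 the form found in most other tissues. Slc25a4 (gene 85333) stood at 2969.6 and 2962 CPM in Control, 2377 and 2361 in Surgery, 2939.8, 2729, 2496 and 3424 in pMT, 3885, 4353, 3190.0 and 2789 in pMT/VitD, and 1968, 2249.7 and 2416 in VitD. Every pMT and pMT/VitD library lay above both Surgery libraries, Control lay within the range of pMT, and VitD overlapped Surgery, while in TPM pMT 4 at 2696 and pMT/VitD 3 at 2732 lay below Surgery, at 2847 and 2829. Its log2 difference was 0.59 (standard error 0.193, edgeR adjusted p = 0.0799) for pMT/VitD minus Surgery, which did not pass, and 0.68 (edgeR adjusted p = 0.00811, range over alternatives 0.00811 to 0.375) without both libraries numbered 4, which did. For pMT/VitD minus pMT the values with and without them were 0.29 (edgeR adjusted p = 0.511) and 0.49, and only the latter passed. Slc25a5 (gene 25176) stood at 23.0 and 24.2 CPM in Control, 32.0 and 33.1 in Surgery, 28.8, 24.4, 23.3 and 34.9 in pMT, 29.9, 28.7, 24.1 and 23.4 in pMT/VitD, and 46.8, 35.0 and 26.7 in VitD. Both Control libraries lay below both Surgery libraries, VitD 1 was the highest, and pMT 4 lay above the other pMT libraries. For VitD minus Control its log2 difference was 0.62 (standard error 0.212, edgeR adjusted p = 0.0839), and without both libraries numbered 4 it was 0.65 (edgeR adjusted p = 0.0380, range over alternatives 0.0111 to 0.353). The ratio of Slc25a5 to Slc25a4 in TPM was 0.855% ± 0.0340 in Control, 1.48% ± 0.0429 in Surgery, 1.03% ± 0.0586 in pMT, 0.812% ± 0.0793 in pMT/VitD and 1.81% ± 0.694 in VitD (mean ± SD, n = 2, 2, 4, 4 and 3). It was higher in both Surgery libraries than in any Control, pMT or pMT/VitD library. Slc25a6, listed as a transcribed pseudogene, had 1.56 TPM (0.835 to 2.69), and how reads shared by these near-identical genes were counted is not stated.

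Slc25a23, Slc25a24 and Slc25a25 exchange ATP-Mg for phosphate under control of calcium and so set the pool of adenine nucleotides in the matrix. Slc25a25 (gene 246771) had the widest relative spread of the 40, with a coefficient of variation of 56.4% over the 15 libraries. It stood at 44.4 and 43.0 CPM in Control, 14.3 and 14.4 in Surgery, 57.7, 50.6, 43.8 and 65.8 in pMT, 50.0, 38.2, 73.0 and 20.9 in pMT/VitD, and 9.08, 14.3 and 15.4 in VitD. Every pMT and pMT/VitD library lay above every Surgery and VitD library, Control lay within the range of pMT/VitD, and pMT/VitD 4 was the lowest of its group. For any difference among the 5 groups its edgeR adjusted p was 0.00242. Its log2 fold change was 1.92 (standard error 0.375, edgeR adjusted p = 0.0196) for pMT minus Surgery, and 1.91 in the exactTest. For pMT/VitD minus Surgery it was 1.66 (standard error 0.370, edgeR adjusted p = 0.0181), and for VitD minus Control -1.76 (standard error 0.357, edgeR adjusted p = 0.0123). Surgery minus Control, at -1.60 (standard error 0.404, edgeR adjusted p = 0.0612), did not pass with all libraries. Without both libraries numbered 4 the values in the same order were 1.80 (edgeR adjusted p = 0.00349), 1.89 (edgeR adjusted p = 0.00101), -1.73 (edgeR adjusted p = 0.00189) and -1.57 (edgeR adjusted p = 0.0106, range over alternatives 4.55e-07 to 0.343). For pMT minus Surgery the adjusted p was 0.263 without Surgery 1 and 0.239 without Surgery 2 (range over 25 alternatives 7.75e-06 to 0.263), with the log2 difference at 1.92 to 1.93. That call also ended with the replicate block, at 0.0786, and with the block while the trend on gene length was removed, at 0.0954. The adjusted p for pMT/VitD minus Surgery was 0.171 and 0.187 without the same libraries (7.90e-05 to 0.187), with the difference at 1.66 to 1.67, and it was 0.0693 with the block, 0.0713 with the block and the length trend removed, and 0.0703 with only the 2 groups fitted. For VitD minus Control it was 0.104 without Control 1 and 0.0886 without Control 2 (0.000106 to 0.104), with the difference at -1.73 to -1.78, and no other alternative ended this call. A group of 2 with 1 left out adds nothing to the spread used by the test, which then comes from the other groups.

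Slc25a24 (gene 310791) stood at 8.76 and 10.7 CPM in Control, 11.5 and 12.9 in Surgery, 10.1, 9.62, 8.70 and 9.71 in pMT, 8.86, 7.77, 7.44 and 9.15 in pMT/VitD, and 16.6, 13.8 and 11.6 in VitD. Every pMT and pMT/VitD library lay below every Surgery and VitD library, and VitD lay above Control. Among the 5 groups it differed with an edgeR adjusted p of 0.00899. It was lower for pMT/VitD minus Surgery, at -0.56 (standard error 0.145, edgeR adjusted p = 0.0340), and -0.62 (edgeR adjusted p = 0.0163) without both libraries numbered 4. That call was lost without any 1 of Surgery 1, Surgery 2, pMT 2, pMT/VitD 1, pMT/VitD 2, pMT/VitD 3 and VitD 2, where the adjusted p was 0.0517 to 0.307 and the log2 difference -0.47 to -0.64 (range over alternatives 0.00635 to 0.307). It was also lost with the length trend removed (adjusted p 0.0586), with the replicate block (0.0960), with both (0.119) and with only the 2 groups fitted (0.0583). For VitD minus Control it was 0.53 (standard error 0.157, edgeR adjusted p = 0.0504), short of the threshold, and 0.56 (edgeR adjusted p = 0.0336, range over alternatives 0.0151 to 0.369) without both libraries numbered 4. Slc25a23 (mean 9.07 TPM, 5.88 to 12.7) was not called in any comparison. It was called for VitD minus Control with the replicate block, whether the length trend was kept or removed, and without VitD 3, and for Surgery minus Control with only these 2 groups fitted. The ratio of Slc25a25 to Slc25a23 in TPM was 1.80 ± 0.227 in Control, 0.781 ± 0.0699 in Surgery, 2.31 ± 0.524 in pMT, 2.09 ± 0.869 in pMT/VitD and 0.725 ± 0.0598 in VitD (mean ± SD, n = 2, 2, 4, 4 and 3). That of Slc25a24 to Slc25a23 was 0.380 ± 0.107 in Control, 0.620 ± 0.0926 in Surgery, 0.374 ± 0.0364 in pMT, 0.365 ± 0.0811 in pMT/VitD and 0.803 ± 0.398 in VitD. By these ratios Slc25a25 was the most abundant of the 3 in Control, pMT and pMT/VitD, and Slc25a23 in Surgery and VitD, on group means.

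**Figure D2:**
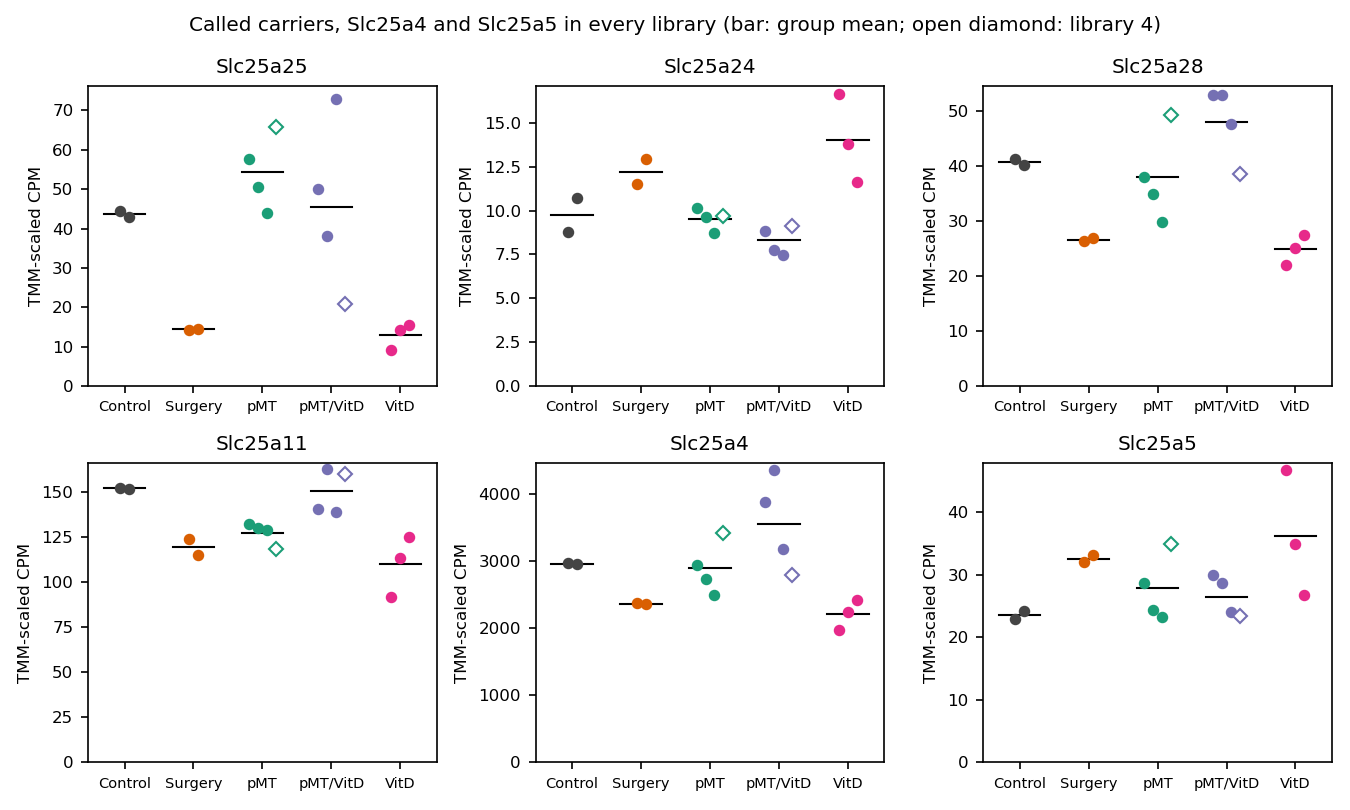
TMM-scaled CPM of Slc25a25, Slc25a24, Slc25a28, Slc25a11, Slc25a4 and Slc25a5 in every library by group, with a bar at the group mean and open diamonds for pMT 4 and pMT/VitD 4. Slc25a25 runs from 9.08 CPM in VitD 1 to 73.0 in pMT/VitD 3, and the Surgery libraries stand at 14.3 and 14.4.

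Slc25a3 (gene 245959), the phosphate carrier, stood at 819.8 and 809 CPM in Control, 674 and 671 in Surgery, 769, 723, 654 and 866 in pMT, 942, 1046, 845 and 794 in pMT/VitD, and 590.1, 646 and 679.9 in VitD. Every pMT/VitD library lay above both Surgery libraries in this unit, and pMT 3 lay below them. In TPM the Surgery libraries stood at 771 and 768, above pMT/VitD 1 at 716 and pMT/VitD 3 at 691. Its log2 difference was 0.43 (standard error 0.150, edgeR adjusted p = 0.0926) for pMT/VitD minus Surgery and did not pass, and 0.10 with library size only, where the median over all genes was -0.32. It was 0.48 (edgeR adjusted p = 0.0168, range over alternatives 0.0123 to 0.565) without both libraries numbered 4, past the threshold. Its difference for pMT/VitD minus pMT was 0.27 (standard error 0.120, edgeR adjusted p = 0.489) with all libraries and 0.41 (edgeR adjusted p = 0.0226, range over alternatives 0.0226 to 0.866) without these 2, past the threshold in this 1 of 25 alternatives.

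Slc25a28 and Slc25a37, the mitoferrins, bring iron into the matrix for haem and iron-sulphur clusters, and Slc25a37 is the form of red cell precursors. Slc25a28 (gene 688811) stood at 41.3 and 40.1 CPM in Control, 26.3 and 26.8 in Surgery, 37.9, 34.8, 29.7 and 49.2 in pMT, 52.8, 52.9, 47.6 and 38.5 in pMT/VitD, and 22.1, 25.1 and 27.3 in VitD. Every pMT and pMT/VitD library lay above every Surgery and VitD library, Control lay within the range of pMT, and pMT 4 was nearer to pMT/VitD 1 to 3 than to pMT 1 to 3. Among the 5 groups it differed with an edgeR adjusted p of 0.00569. It was higher for pMT/VitD minus Surgery, at 0.85 (standard error 0.180, edgeR adjusted p = 0.0138), and lower for VitD minus Control, at -0.71 (standard error 0.180, edgeR adjusted p = 0.0285). The differences for pMT minus Surgery, 0.51 (standard error 0.177, edgeR adjusted p = 0.177), and Surgery minus Control, -0.62 (standard error 0.201, edgeR adjusted p = 0.130), did not pass. Without both libraries numbered 4 the values in the same order were 0.94 (edgeR adjusted p = 0.000559), -0.68 (edgeR adjusted p = 0.00374), 0.35 (edgeR adjusted p = 0.124, range over alternatives 0.0566 to 0.699) and -0.59 (edgeR adjusted p = 0.0248, range over alternatives 0.000131 to 0.474), and pMT/VitD minus pMT, at 0.34 (standard error 0.141, edgeR adjusted p = 0.476) with all libraries, passed at 0.59 (edgeR adjusted p = 0.00376, range over alternatives 0.00376 to 0.866), in this 1 of 25 alternatives. For pMT/VitD minus Surgery the adjusted p was 0.155 without Surgery 1 and 0.143 without Surgery 2 (range over alternatives 0.000230 to 0.155), with the log2 difference at 0.84 to 0.87, and it was 0.0640 with the replicate block. For VitD minus Control the call was lost without any 1 of Control 1, Control 2, VitD 1 and VitD 2, with an adjusted p of 0.0667 to 0.185 (0.00374 to 0.185) and a log2 difference of -0.63 to -0.73, and likewise with the replicate block (0.0684) and with only the 2 groups fitted (0.0601). Slc25a37 (mean 1.19 TPM, 0.592 to 1.70) was not called in any comparison, but was for pMT/VitD minus Surgery with library size only. Its ratio to Slc25a28 in TPM was 3.73% ± 1.02 in Control, 6.07% ± 0.105 in Surgery, 3.37% ± 1.43 in pMT, 2.48% ± 0.719 in pMT/VitD and 5.88% ± 0.577 in VitD (mean ± SD, n = 2, 2, 4, 4 and 3), and both Surgery libraries lay above every pMT, pMT/VitD and Control library.

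Of the carriers of other nucleotides and cofactors, Slc25a17, which works in the peroxisome, was the most abundant at 13.6 TPM and the steadiest of the 40, with a coefficient of variation of 6.87%. It stood at 17.1 and 18.7 CPM in Control, 16.7 and 16.1 in Surgery, 17.8, 17.5, 17.4 and 20.2 in pMT, 19.9, 18.0, 17.4 and 18.3 in pMT/VitD, and 16.5, 17.1 and 16.2 in VitD. Library pMT 4 lay above the other pMT libraries, and no comparison was called. Slc25a36 (11.0 TPM) and Slc25a33 (8.60) carry pyrimidine nucleotides, Slc25a42 (9.66) coenzyme A, Slc25a51 (7.01) NAD, Slc25a32 (5.66) folate or FAD, and Slc25a26 (4.47) S-adenosylmethionine. In edgeR's quasi-likelihood test with TMM and all libraries none of these 6 was called. Slc25a36 stood at 49.5 and 53.6 CPM in Control, 31.0 and 31.2 in Surgery, 38.2, 41.2, 45.4 and 36.3 in pMT, 29.0, 31.2, 57.5 and 35.7 in pMT/VitD, and 29.6, 31.5 and 33.0 in VitD. Both Control libraries and pMT/VitD 3 were the highest, and VitD and Surgery lay below Control. It gave for VitD minus Control -0.72 (edgeR adjusted p = 0.0522), and -0.69 (edgeR adjusted p = 0.0479, range over alternatives 0.00554 to 0.249) without both libraries numbered 4. In all it was called for VitD minus Control in 9 of 25 alternatives, DESeq2 and the length trend removed among them, and for Surgery minus Control in 2, and the other 5 of the 6 and Slc25a17 were called in no comparison under any alternative. The ratio of Slc25a36 to Slc25a33 was 1.65 ± 0.0104 in Control, 1.07 ± 0.101 in Surgery, 1.32 ± 0.240 in pMT, 1.22 ± 0.342 in pMT/VitD and 1.17 ± 0.0853 in VitD (mean ± SD, n = 2, 2, 4, 4 and 3).

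Slc25a11, which exchanges oxoglutarate for malate, and Slc25a12, which exchanges aspartate for glutamate, form the malate-aspartate shuttle. Slc25a11 (gene 64201) stood at 152 and 152 CPM in Control, 124 and 115 in Surgery, 132, 129.9, 129 and 118 in pMT, 140.4, 163, 139 and 159.9 in pMT/VitD, and 91.5, 113 and 125 in VitD. Every VitD, pMT and Surgery library lay below both Control libraries in this unit, which did not hold in TPM, and pMT/VitD overlapped Control. It was lower for VitD minus Control, at -0.47 (standard error 0.134, edgeR adjusted p = 0.0445), and -0.44 (edgeR adjusted p = 0.0311) without both libraries numbered 4. That call was lost without any 1 of Control 1, Control 2, Surgery 1, Surgery 2, pMT 1, pMT 2, pMT 3, pMT/VitD 1, pMT/VitD 2, VitD 1 and VitD 2, with an adjusted p of 0.0505 to 0.229 and a log2 difference of -0.35 to -0.49 (range over alternatives 0.00645 to 0.458). In total 17 of 25 alternatives ended it, among them no filter (adjusted p 0.0687), the replicate block (0.0774), the length trend removed (0.146), both of these (0.121) and only the 2 groups fitted (0.135). With library size only the difference was -0.19 (adjusted p 0.458), beside a median over all genes of 0.27. Slc25a12 (gene 362145) stood at 141 and 127 CPM in Control, 111 and 110.2 in Surgery, 145, 148, 153 and 109.5 in pMT, 115, 123, 119 and 145 in pMT/VitD, and 77.9, 109 and 117 in VitD. Libraries pMT 1 to 3 and pMT/VitD 4 were the highest, pMT 4 lay just below Surgery, and VitD 1 was the lowest. No comparison of Slc25a12 passed with TMM and all libraries, except Surgery minus Control when only these 2 groups were fitted, and pMT minus Surgery gave 0.33 (standard error 0.173, edgeR adjusted p = 0.425), against 0.41 without both libraries numbered 4. The other carrier of aspartate and glutamate, Slc25a13, had 0.820 TPM, and its ratio to Slc25a12 was 1.07% ± 0.0300 in Control, 1.55% ± 0.120 in Surgery, 1.18% ± 0.305 in pMT, 1.27% ± 0.241 in pMT/VitD and 1.96% ± 0.966 in VitD (mean ± SD, n = 2, 2, 4, 4 and 3). The citrate carrier Slc25a1 had 3.89 TPM, the dicarboxylate carrier Slc25a10 1.64, and the glutamate carriers Slc25a22 and Slc25a18 1.25 and 0.239. None of these 5 was called, and under the alternatives Slc25a1 alone was, for Surgery minus Control with only these 2 groups fitted. The ratio of Slc25a22 to Slc25a18 was 7.08 ± 2.17 in Control, 5.45 ± 0.400 in Surgery, 6.66 ± 2.40 in pMT, 9.58 ± 7.83 in pMT/VitD and 3.38 ± 0.920 in VitD, with a mean of 5.76 in pMT/VitD without pMT/VitD 2, whose ratio was 21.0, and counts of Slc25a18 from 5 to 58.

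Slc25a20 takes acylcarnitines into the matrix and Slc25a39 takes in glutathione. Slc25a20 (gene 117035) stood at 82.9 and 85.4 CPM in Control, 71.7 and 72.8 in Surgery, 76.0, 74.5, 73.4 and 91.6 in pMT, 88.1, 82.8, 89.4 and 83.1 in pMT/VitD, and 83.2, 74.0 and 69.3 in VitD. Library pMT 4 lay above pMT 1 to 3, and every pMT and pMT/VitD library lay above both Surgery libraries on this scale. No comparison passed, except Surgery minus Control when only these 2 groups were fitted, and pMT/VitD minus Surgery gave 0.25 (standard error 0.114, edgeR adjusted p = 0.191), and -0.079 with library size only, where the median over all genes was -0.32, so that it lay above the median under both scalings. Slc25a39 (gene 360636) stood at 51.7 and 42.6 CPM in Control, 43.5 and 43.8 in Surgery, 43.6, 43.3, 41.9 and 48.0 in pMT, 54.3, 57.3, 51.1 and 50.0 in pMT/VitD, and 41.2, 38.7 and 41.7 in VitD. Every pMT/VitD library lay above every pMT and Surgery library in CPM, and in TPM only pMT/VitD 4 did. With all libraries pMT/VitD minus pMT gave 0.27 (standard error 0.0838, edgeR adjusted p = 0.452), and pMT/VitD minus Surgery 0.28 (standard error 0.104, edgeR adjusted p = 0.108), the latter -0.044 with library size only, also above that median of -0.32. The values without both libraries numbered 4 were 0.34 (edgeR adjusted p = 0.0167, range over alternatives 0.0167 to 0.866) and 0.31 (edgeR adjusted p = 0.0426, range over alternatives 0.0358 to 0.813), past the threshold. The ratio of its relative Slc25a40 to Slc25a39 was 3.11% ± 0.618 in Control, 2.45% ± 0.499 in Surgery, 3.82% ± 0.821 in pMT, 3.22% ± 0.643 in pMT/VitD and 3.10% ± 0.478 in VitD (mean ± SD, n = 2, 2, 4, 4 and 3). The glycine carrier Slc25a38 had 12.97 TPM, Slc25a44, which carries branched-chain amino acids, 6.06, and Slc25a29, which carries basic amino acids, 2.595. The ornithine carriers Slc25a15 and Slc25a2 had 2.91 and 0.605 TPM. None of these 5 or Slc25a40 was called in edgeR with TMM and all libraries, and under the alternatives Slc25a38 was, for VitD minus Control without VitD 3 and for pMT/VitD minus Surgery and Surgery minus Control with only the 2 groups fitted. Slc25a15 stood at 8.47 and 8.95 CPM in Control, 7.97 and 7.50 in Surgery, 8.98, 8.57, 9.77 and 7.16 in pMT, 7.35, 6.99, 7.42 and 10.1 in pMT/VitD, and 6.81, 7.98 and 8.62 in VitD. Library pMT 4 lay below the other pMT libraries and pMT/VitD 4 above every other library. It gave for pMT/VitD minus pMT -0.11 (edgeR adjusted p = 0.786), and -0.32 without both libraries numbered 4, which passed.

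Slc25a30, Slc25a14 (2.40 TPM) and Slc25a27 (0.480) are relatives of the uncoupling proteins. Slc25a30 (gene 361074) was the most abundant at 4.93 TPM and stood at 12.4 and 12.0 CPM in Control, 12.1 and 13.2 in Surgery, 10.7, 12.2, 11.9 and 15.9 in pMT, 15.3, 14.8, 12.6 and 10.8 in pMT/VitD, and 10.8, 12.7 and 14.95 in VitD. Library pMT 4 was the highest, the 5 groups overlapped, and none of the 3 was called in a comparison under any setting. Among carriers with another or uncertain substrate, Slc25a46 is a protein of the outer membrane tied to the shape of mitochondria. Slc25a46 (gene 291709) stood at 30.0 and 33.9 CPM in Control, 34.7 and 34.5 in Surgery, 37.6, 38.2, 38.7 and 37.3 in pMT, 35.9, 41.1, 24.2 and 32.6 in pMT/VitD, and 36.8, 36.4 and 39.0 in VitD. Library pMT/VitD 3 was the lowest and pMT/VitD 2 the highest, so that pMT/VitD spanned the other groups. Slc25a34, Slc25a35, Slc25a16 and Slc25a45 had means of 4.85, 3.56, 2.79 and 1.34 TPM. None of these 5 was called in edgeR's quasi-likelihood test with TMM and all libraries, and Slc25a45 was for VitD minus Control with library size only and in DESeq2. Slc25a34 stood at 8.76 and 8.73 CPM in Control, 6.87 and 7.11 in Surgery, 9.42, 9.88, 9.0 and 7.75 in pMT, 7.39, 8.86, 9.55 and 7.63 in pMT/VitD, and 5.62, 7.04 and 6.46 in VitD. Both Control libraries lay above every Surgery and VitD library. Its difference for VitD minus Control was -0.46 (edgeR adjusted p = 0.0628), and -0.43 (edgeR adjusted p = 0.0386, range over alternatives 0.0290 to 0.543) without both libraries numbered 4. It was called there in 5 of 25 alternatives, DESeq2 and the length trend removed among them, and for Surgery minus Control with only these 2 groups fitted.

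The orders of libraries given for single members are in TMM-scaled CPM. In TPM every pMT and pMT/VitD library also lay above every Surgery and VitD library for Slc25a25 and Slc25a28 and below them for Slc25a24, and the orders of other members did not all hold.

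Within roles, medians of the log2 difference for pMT/VitD minus Surgery and VitD minus Control were -0.30 and 0.62 for the 3 ADP/ATP carriers, of which Slc25a4, the most abundant, lay on the opposite side at 0.59 and -0.42, and 0.23 and -0.56 for the 3 ATP-Mg carriers. They were 0.25 and -0.36 for the 2 iron carriers, 0.13 and -0.18 for the 8 nucleotide and cofactor carriers, and -0.11 and 0.00 for the 7 shuttle and carboxylate carriers. The 8 carriers of amino acids, glutathione and carnitine had 0.18 and -0.18, the 3 relatives of uncoupling proteins 0.30 and -0.22, and the 5 remaining carriers 0.00 and 0.00. Each of these 8 roles held members on both sides of 0 in at least 1 of the 2 comparisons.

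**Figure D3:**
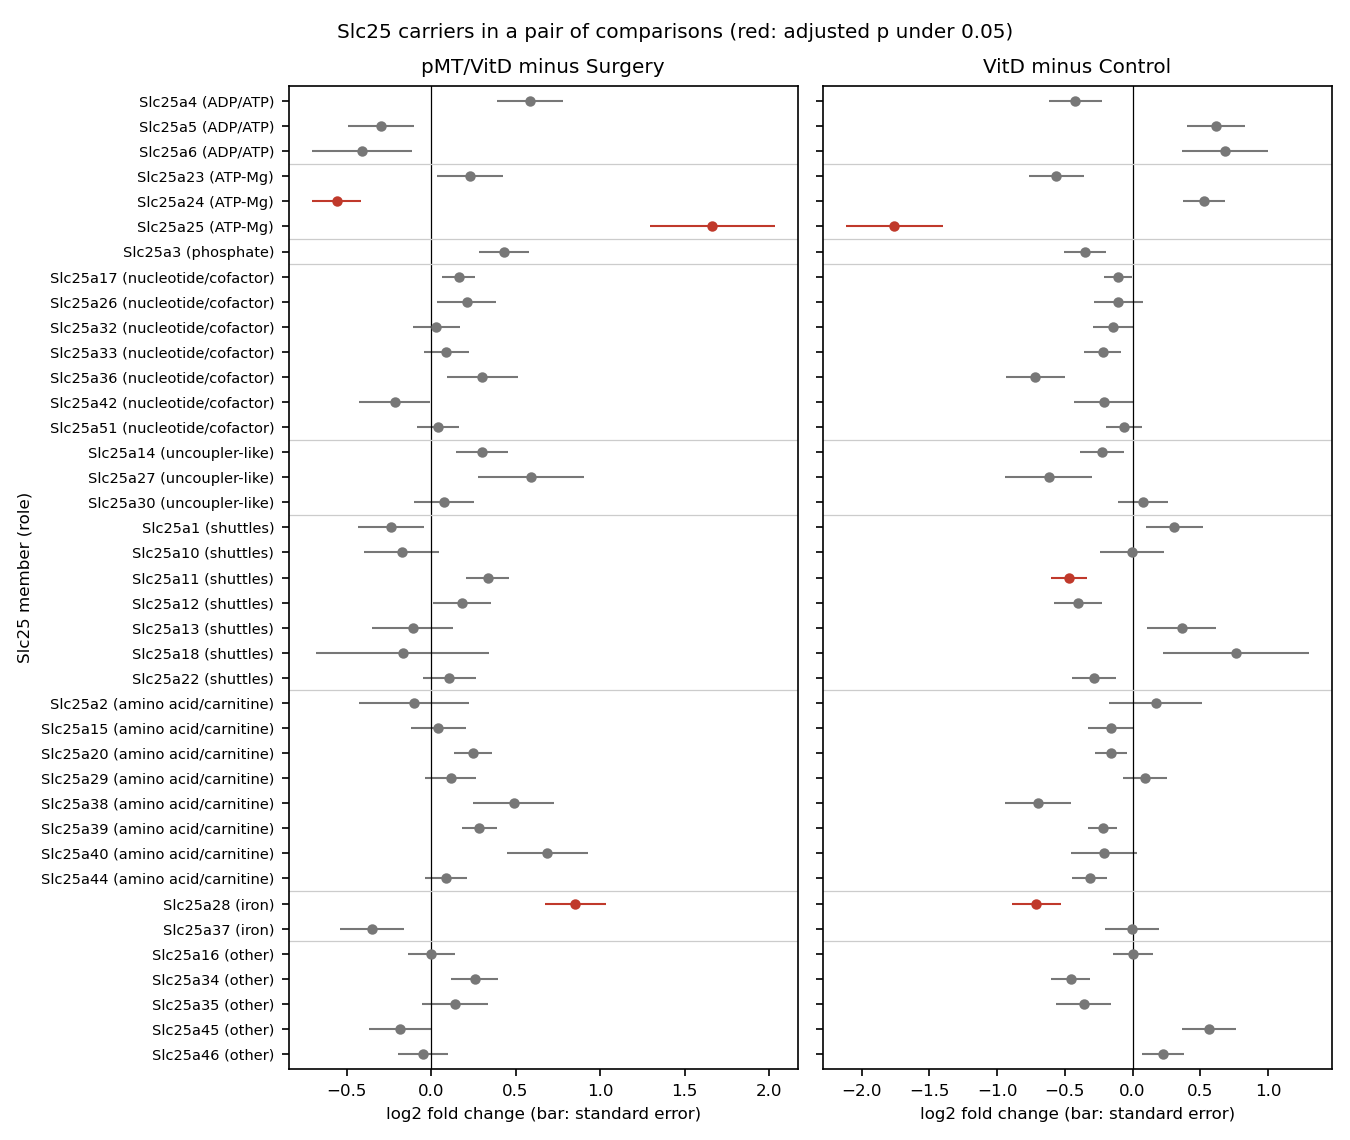
Log2 fold change of Slc25 carriers, ordered by role, for pMT/VitD minus Surgery and VitD minus Control, with a bar for the standard error and red for an edgeR adjusted p under 0.05. Slc25a25 has the largest difference either way, 1.66 and -1.76.

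The member nearest above the minimum was Slc25a18, with a mean count of 23.2, and the symbol nearest below it was Slc25a43, with 9.6. Slc25a52, Slc25a21, Slc25a48, Slc25a53 and Slc25a47 had mean counts of 6.4, 3.93, 1.67, 1 and 0.533. Slc25a31, Slc25a41 and Slc25a54 had 0 counts in all 15 libraries.

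Whether the difference made by pMT depended on cholecalciferol was tested as the difference between pMT/VitD minus VitD and pMT minus Surgery, a contrast chosen after the data were seen. In edgeR's quasi-likelihood test 0 of 17201 genes and 0 members were called, with 888 genes and 1 member at an unadjusted p under 0.05, and DESeq2 was not run on it. That member was Slc25a39, at 0.38 (edgeR adjusted p = 0.899), and Slc25a25 had -0.10 (0.984). The contrast without both libraries numbered 4 called 325 of 17182 genes and 1 member, Slc25a28, at 0.69 (edgeR adjusted p = 0.0440).

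Relatives of the family under other names were Ucp1, Ucp2, Ucp3, Mtch1 and Mtch2, and their most abundant transcripts by mean TPM were Ucp3 (135), Mtch2 (78.5) and Mtch1 (55.2). Ucp2, an uncoupling protein, was lower for pMT/VitD minus Surgery, at -0.72 (edgeR adjusted p = 0.0117), and higher for VitD minus Control, at 0.63 (edgeR adjusted p = 0.0303). Of the 4 tested relatives it was the 1 called, beside 5.03% of all genes called lower and 5.48% called higher in these comparisons. Ucp1 had 0 counts in 13 libraries. Genes of the import route for carriers numbered 13 tested, led by Timm8b (462), Tomm20 (145) and Tomm22 (77.5) TPM. edgeR called 0 of them in each comparison, with up to 3 higher and 1 lower at an unadjusted p under 0.05, and DESeq2 was not counted for the lists. Their median was 0.23 for pMT/VitD minus Surgery and -0.13 for VitD minus Control.

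Of 30 other tested genes of mitochondrial transport, led by Vdac3 (533), Mpc1 (524) and Vdac1 (461) TPM, 1 was higher for Surgery minus Control, 1 higher and 2 lower for pMT/VitD minus Surgery, and 2 higher and 2 lower for VitD minus Control, beside 1.55%, 7.44% and 8.67% of all genes called in either direction. Cpt1a, which forms acylcarnitines ahead of Slc25a20, had 0.53 (edgeR adjusted p = 0.0394), -0.50 (edgeR adjusted p = 0.0100) and 0.63 (edgeR adjusted p = 0.00581) in these 3 comparisons. Mcu, the pore of the calcium uniporter, had -0.40 (edgeR adjusted p = 0.0274) for pMT/VitD minus Surgery and 0.42 (edgeR adjusted p = 0.0288) for VitD minus Control. Its regulator Micu3 was higher in the former, at 0.55 (edgeR adjusted p = 0.0378). The transporters Abcb6 and Sfxn5 were lower in the latter, at -0.38 (edgeR adjusted p = 0.0492) and -1.41 (edgeR adjusted p = 0.0336). No gene of the list was called in the other 5 comparisons.

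Of 16 regulators of mitochondrial genes, led by Nr4a1 (61.4), Tfam (44.1) and Esrra (35.7) TPM, Ppard was lower for VitD minus Control, at -0.67 (edgeR adjusted p = 0.0474), and no other call was made in the 8 comparisons. Over all genes 3.20% were called lower for VitD minus Control. Of 17 genes taken as a measure of mitochondrial content, led by Atp5b (1821), Cox4i1 (1547) and Atp5a1 (1011) TPM, edgeR called 0 in each comparison, with up to 5 at an unadjusted p under 0.05, 5 higher for pMT/VitD minus Surgery and 5 lower for VitD minus Control. Their medians there were 0.29 and -0.29, beside 0.11 and -0.18 for the carriers. Their summed level was 9212 and 8949.8 TPM in Control, 10025 and 9917 in Surgery, 10086, 10299.5, 10245 and 8287 in pMT, 8879, 9749.6, 8765 and 9996 in pMT/VitD, and 8949, 9664 and 10063 in VitD, lowest in pMT 4. These sums did not follow the directions of the medians, which came from counts with TMM scaling. No pMT/VitD library lay above both Surgery libraries, and all but that at 9996 lay below both. The VitD libraries at 9664 and 10063 lay above both Control libraries, and that at 8949 lay below them. The direction for these genes thus depended on the unit.

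Markers of other cells moved between the same groups. In bulk tissue fewer cells of a type and less RNA per cell cannot be told apart. Of 11 macrophage genes 2 were higher for Surgery minus Control, 5 lower for pMT minus Surgery, 10 lower for pMT/VitD minus Surgery and 6 higher for VitD minus Control, beside 1.25%, 1.55%, 5.03% and 5.48% of all genes in the same directions. Their summed level was 274 and 254 TPM in Control, 658 and 648 in Surgery, 319, 348, 369 and 185 in pMT, 181, 179, 216 and 324 in pMT/VitD, and 937, 631 and 528 in VitD. Lyz2 was the most abundant at 128, none of the 11 was at 0 in any library, and VitD 1 had the highest sum. Of 9 fibroblast genes 2 were lower for pMT minus Surgery, 4 lower for pMT/VitD minus Surgery and 6 higher for VitD minus Control, beside the last 3 of these shares. The fibroblast sum was 1134 and 1182 TPM in Control, 2088 and 2124 in Surgery, 1406, 1515, 1603 and 939 in pMT, 779.7, 771, 925 and 1325 in pMT/VitD, and 3203, 2155 and 1867 in VitD. Dcn was the most abundant at 540.1 and none was at 0. In both lists all Surgery and VitD libraries lay above all pMT and pMT/VitD libraries, the reverse of Slc25a25 and Slc25a28 and the same side as Slc25a24. The part of these cells in the carriers' differences was not tested.

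Of 8 tested erythroid genes Alas2, which makes the haem precursor, was higher for pMT/VitD minus Surgery, at 1.13 (edgeR adjusted p = 0.0337), and no other call was made. Over all genes 2.40% were called higher there. Their summed level was 926 and 891 TPM in Control, 749 and 742 in Surgery, 1015, 1089, 1195 and 1369 in pMT, 1449, 1655, 650.5 and 1311 in pMT/VitD, and 1151, 719 and 581 in VitD, led by Hbb at 754, and Epb42 was at 0 in 1 library. Of 9 tested adipocyte genes Pparg was higher for VitD minus Control, at 0.90 (edgeR adjusted p = 0.0247), beside 5.48% of all genes called higher. The adipocyte sum was 389.6 and 415 TPM in Control, 711 and 728 in Surgery, 636, 650.5, 660.0 and 723 in pMT, 686, 611, 444 and 415 in pMT/VitD, and 1214, 756 and 589 in VitD, led by Fabp4 at 602, with Ucp1 at 0 in 13 libraries. Of 8 lymphocyte genes tested Cd4 was lower for pMT minus Surgery, at -0.93 (edgeR adjusted p = 0.0414), and for pMT/VitD minus Surgery, at -1.14 (edgeR adjusted p = 0.00739), and higher for VitD minus Control, at 0.84 (edgeR adjusted p = 0.0443). Over all genes the shares called in these directions were 1.55%, 5.03% and 5.48%. The lymphocyte sum was 16.0 and 16.8 TPM in Control, 35.5 and 37.3 in Surgery, 15.9, 19.6, 22.7 and 11.2 in pMT, 9.93, 8.22, 13 and 21.1 in pMT/VitD, and 42.9, 34.2 and 30.7 in VitD, led by Cd4 at 19.9. The next of the list, Jchain, had a mean of 0.616 TPM, so this sum is nearly that of Cd4 alone. No other gene of the list was called, and which cells held the Cd4 transcript was not tested. Cd79b, Cd3d, Cd3e and Ms4a1 were at 0 in 3, 5, 3 and 2 libraries. Their part in the carriers' differences was not tested.

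Of 8 endothelial genes Tie1 was lower for pMT/VitD minus Surgery, at -0.54 (edgeR adjusted p = 0.0151), and Tie1 and Emcn were higher for VitD minus Control, at 0.48 (edgeR adjusted p = 0.0335) and 0.93 (edgeR adjusted p = 0.0348). Over all genes the shares called in these directions were 5.03% and 5.48%. The endothelial sum was 124 and 125 TPM in Control, 189 and 187 in Surgery, 159, 188, 203 and 104 in pMT, 106, 111, 99.6 and 151 in pMT/VitD, and 217, 191 and 179 in VitD, led by Pecam1 at 49.8. Of 8 Schwann cell genes Pmp22 was lower for pMT/VitD minus Surgery, at -0.46 (edgeR adjusted p = 0.0308), beside 5.03% of all genes called lower. The Schwann cell sum was 91.6 and 90.04 TPM in Control, 129 and 129 in Surgery, 111, 119, 122 and 68.2 in pMT, 69.9, 67.5, 78.5 and 105 in pMT/VitD, and 137, 127 and 124 in VitD, led by Pmp22 at 48.8. Of 8 slow-fibre genes, led by Myl3 at 1194, edgeR called 0 in each comparison, with 1 at an unadjusted p under 0.05, for VitD minus Control. The slow-fibre sum was 4663 and 4857 TPM in Control, 7025 and 6961 in Surgery, 5198, 5847, 6471 and 6881 in pMT, 7093, 6953, 4348 and 5447 in pMT/VitD, and 6325, 7002 and 7170.0 in VitD, and both Surgery libraries lay above both Control libraries. No gene of these 3 lists was at 0 in any library, and their part in the carriers' differences was not tested.

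Promoter sequences from RefSeq on the GRCr8 assembly, the 250 bases before the start of a gene, were available for 32 of the 40 members. They were searched on both strands for 4 motifs: the cyclic AMP response element TGACGTCA, the ERR element TCAAGGTCA, the NRF1 core GCATGCGC and the GABPA site CCGGAAGT. The response element was in 1.59% of 33469 promoters and in 2 of the 32, Slc25a25 at 158 bases before the start and Slc25a33 at 84. The ERR element was in 0.388% of promoters and in 0 of the 32. The NRF1 core was in 2.20% and in 1 member, Slc25a13, and the GABPA site in 3.10% and in 1, Slc25a20. The response element reads the same on both strands, the NRF1 match lay on the strand opposite to the gene, and the GABPA match lay on the strand of the gene. A match describes the letters only. Printed next are the promoters of Slc25a25 (chr3:36116582-36116831, minus strand) and Slc25a28 (chr1:252491343-252491592, minus strand), the members called in 3 and 2 comparisons, and of Slc25a24 (chr2:199449175-199449424, plus strand), which lay on the opposite side. Each runs 5′ to 3′ on the strand of its gene, and capitals mark the response element, which the promoters of Slc25a28 and Slc25a24 do not hold.
Slc25a25: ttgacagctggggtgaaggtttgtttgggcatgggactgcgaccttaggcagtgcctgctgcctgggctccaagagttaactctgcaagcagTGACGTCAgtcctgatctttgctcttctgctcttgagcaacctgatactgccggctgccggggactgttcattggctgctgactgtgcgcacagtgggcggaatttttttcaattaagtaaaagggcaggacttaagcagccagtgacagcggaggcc
Slc25a28: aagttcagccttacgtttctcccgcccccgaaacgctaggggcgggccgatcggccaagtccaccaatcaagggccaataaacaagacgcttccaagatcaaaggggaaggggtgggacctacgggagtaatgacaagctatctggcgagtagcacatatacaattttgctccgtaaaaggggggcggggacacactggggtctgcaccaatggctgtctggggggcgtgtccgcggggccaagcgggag
Slc25a24: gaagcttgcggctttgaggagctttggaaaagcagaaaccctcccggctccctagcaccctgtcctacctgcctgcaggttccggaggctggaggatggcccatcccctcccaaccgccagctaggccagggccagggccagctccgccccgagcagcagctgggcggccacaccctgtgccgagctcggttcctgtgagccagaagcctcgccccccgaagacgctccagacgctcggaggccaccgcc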

How the data were processed

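Counts were deposited as whole numbers per gene and library by the authors, who also deposited TPM and FPKM values. By the submitters' processing notes Trimmomatic 0.38, HISAT2 2.1.0 (to rn6), SAMtools 1.9, StringTie 2.1.3b and edgeR 3.40.2 were run. FPKM values were not used. How strand and reads that align to several genes were handled is not stated. Groups came from the sample labels, and all 15 libraries were used.

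Counts served every test and TPM the levels compared between genes. Genes were kept by filterByExpr and scaled by TMM, then fitted with glmQLFit (robust) in edgeR 4.0.16, with limma 3.58.1, R 4.3.3 and DESeq2 1.42.0 as an alternative. The exactTest rule used the 4 pMT and 2 Surgery libraries. Other alternatives were RLE or library size scaling, other filters (any count, or at least 10 in every library), a replicate block, a trend on relative gene length (mean count over mean TPM) removed by loess, fits of only the 2 groups compared, and leaving out each library or both libraries numbered 4. Figures were drawn with Python 3.11.15 and matplotlib 3.10.9.

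Values per library are given for the 8 most abundant members, members called in any comparison and the most abundant of each role. From the hand-written lists at most the 3 most abundant genes and at most 3 called genes per comparison are named. The exception is VitD minus Control in the list of mitochondrial transport, where every called gene is named. Results of some single genes, a called member among them, are not reported here, but family and list totals include them. Members and lists were chosen with earlier results of these data known.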

Additional observations from a re-analysis of the deposited data

Results flagged for a closer look

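In each group of 4 libraries a value was noted when 1 library lay far from the other 3, by a measure that would by chance note about 1 in 20 groups. For 36 sets of 4 libraries, over selected members and over family and library measures, 1.8 were to be expected and 5 were found. The sets are not independent, since the carrier sums share members. The share of mitochondrial transcripts had also already set pMT 4 apart, so this comparison is no test. All 5 belong to pMT 4.

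Library pMT 4 had 20.2 CPM of Slc25a17 against 17.4 to 17.8 in the other pMT libraries, and 91.6 CPM of Slc25a20 against 73.4 to 76.0. The summed TPM of the 40 carriers was 3805 there against 4635 to 4716, and without Slc25a4 it was 1109 against 1435 to 1499.8. Transcripts of the 13 proteins encoded in mitochondrial DNA took 22.6% of its counts against 11.1% to 12.9%. CPM after TMM scaling and TPM differ in what they divide by, so a library can be high on the former and low on the latter. The cause was not tested.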

How the results depend on the processing

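The 41 single-member results with an unadjusted p under 0.05 were followed over 25 alternatives. Of the 1025 values 893 kept call and sign, 68 gained a call, 62 lost one and 2 changed sign, Slc25a20 at -0.079 and Slc25a39 at -0.044, both for pMT/VitD minus Surgery with library size only. The median over all genes was -0.32 there, and both lay above it, as they did with TMM. Over all 40 members library size only changed the sign of 19 in that comparison and of 1 to 15 in the other 7. By side of the median over all genes, Slc25a33 for pMT/VitD minus Control was the only change among the 8 comparisons, and RLE made none. Of the medians over members 184 stayed within a tolerance and 16 moved, and of the counts 186 stayed within a tolerance and 50 moved. The size of the tolerance is not given here, and a count within it was not always equal. Slc25a11 was added for pMT/VitD minus Surgery without VitD 1, and was lost for VitD minus Control with no filter. Neither count was among those that moved. Not every change within the tolerance is listed below.

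Counts of members are followed here by all genes called. For any of 5 groups the 3 (2035) became 5 with RLE (2042), 6 with library size only (3579), 11 with DESeq2 (3708), 5 with at least 10 counts in every library (2064), 9 with the length trend removed (2758), 6 with the replicate block and length trend removed together (1667), and 10 without both libraries numbered 4 (5125). For Surgery minus Control the 0 (266) became 1 with library size only (997), with DESeq2 (1001) or with the length trend removed (544), 2 without both libraries numbered 4 (716), and 16 when only these 2 groups were fitted (5289). For VitD minus Control the 3 (1492) became 6 with library size only (2795), 8 with DESeq2 (2471), 5 with at least 10 counts in every library (1599), 5 with the replicate block (1298), 8 with the length trend removed (2339), 8 with both together (2209), 1 with only the 2 groups fitted (96) and 7 without both libraries numbered 4 (2589). Under 6 of the alternatives that did not leave out a library, Slc25a11 was not among them.

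For pMT/VitD minus Surgery the 4 (1279) became 8 with DESeq2 (2226), 0 with the replicate block (350), 1 with replicate block and length trend removed (522), 2 with only the 2 groups fitted (836) and 7 without both libraries numbered 4 (3462). With the length trend removed Slc25a3 and Slc25a4 were added and Slc25a24 was lost. Library size only added Slc25a5 and Slc25a37 and lost another member, which was also lost with no filter. For pMT minus Surgery the 1 (334) became 0 with the replicate block (78) and with the length trend removed as well (98). For pMT/VitD minus pMT the 0 (0) became 5 without both libraries numbered 4 (3136), and for the difference of differences it became 1. The pMT minus Control, pMT/VitD minus Control and VitD minus Surgery counts of 0 in edgeR held in every alternative run, DESeq2 included. The count of 1 member by the exactTest rule was the same in every alternative run.

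Leaving out 1 library at a time gave 3 to 9 members for any of 5 groups, 0 to 2 for Surgery minus Control, 0 to 1 for pMT minus Surgery, 0 to 5 for pMT/VitD minus Surgery and 0 to 7 for VitD minus Control, and 0 in the other 4 comparisons. Same-numbered libraries of different groups were no more alike than others: of 24 such pairs 2 had a correlation over 0.1, with a range of -0.50 to 0.17 and a median of 0.01. Whether the numbers pair samples is not stated, and these correlations showed no pairing. They are correlations, over genes, of each library's departure from its group mean, not of the libraries' levels. Departures within a group cancel out, so the values are tied to each other. Among pairs of different number, pMT 4 had correlations of 0.43, 0.31 and -0.12 with pMT/VitD 1, 2 and 3. In the same way pMT/VitD 4 had 0.08, 0.29 and 0.36 with pMT 1, 2 and 3. The value of -0.50 was that of pMT 4 with pMT/VitD 4, and it is not separate from the others, since departures within a group cancel out. What these values mean for pMT/VitD minus pMT was not tested.

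Control and Surgery hold 2 libraries each, and without 1 of them the group adds nothing to the spread, which the other groups then give. No pair of replicate libraries matched within counting noise. The 2 Surgery libraries came nearest, with a chi-square per degree of freedom of 4.55, against 20.5 for the Control pair and more in every other pair. Comparisons with Surgery rest on this close pair, and whether its libraries came from separate rats is not stated. Near-identical copies (Slc25a4, Slc25a5 and Slc25a6, or Slc25a51 and Slc25a52) are uncertain where reads align to several genes. The members were not chosen blind to these data, so no test over the family was made. Treatment and surgery cannot be told apart in comparisons with Control, nor agent, fluid and injection in those with Surgery. The cause of the spread between libraries was not tested.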
